A study of Mus musculus with 6 samples.

Results

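The genes described here are 32 genes of the unfolded protein response and the integrated stress response, chosen by gene symbol from the 27998 genes in the deposited tables. They comprise 9 chaperones and co-chaperones of the endoplasmic reticulum (ER), 3 genes of lectin-assisted folding and N-glycosylation, 4 protein disulfide isomerases, 7 stress sensors and transcription factors, 4 genes of ER-associated degradation (ERAD), and 5 genes that lie downstream of phosphorylated eIF2. They were read out in single-cell libraries from the 3 organs of the hypothalamic-pituitary-adrenal axis, namely the adrenal gland, the pituitary and the hypothalamic paraventricular nucleus (PVN). Each organ was sampled from unstressed C57BL/6 control mice and from mice exposed to chronic social defeat, a paradigm of repeated confrontation with an aggressor, for 21 days. All mice were 10 weeks old. Each of the 6 libraries was made from a single cell suspension pooled from 5 mice, and control and stress suspensions of an organ were processed on the same chip. With 1 pool per organ and condition there are no biological replicates, so intervals given below cover counting error alone, and no difference between libraries was tested against the variation between mice.

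Secreted proteins fold in the ER. When unfolded protein accumulates there, 3 membrane sensors respond. IRE1, encoded by Ern1, splices the Xbp1 mRNA so that it encodes an active transcription factor. PERK, encoded by Eif2ak3, phosphorylates the translation factor eIF2, which lowers general protein synthesis and favours translation of Atf4. ATF6 is cut in the Golgi to release a transcription factor. Together these raise chaperones such as BiP (Hspa5), disulfide isomerases and the ERAD machinery that removes misfolded protein. The eIF2 arm is shared with kinases that sense amino acid shortage, viral RNA and haem shortage, and is then called the integrated stress response. Ppp1r15a encodes GADD34, which recruits a phosphatase to eIF2 and closes the loop. Hormone- and peptide-secreting cells carry a heavy load of secretory protein, and secretory cells lacking parts of this response can fail. Droplet counts give the amount of Xbp1 mRNA, not its splicing, and say nothing about phosphorylation of eIF2 or cleavage of ATF6.

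The regulatory sequences through which this response acts were looked for in the RefSeq promoters of GRCm38.p6, which run from 250 bases before to 50 bases after the gene start and were found for 28 of the 32 genes. Atf6, Ostc, Hyou1 and Manf had no entry. The ER stress response element (ERSE), which is CCAAT and CCACG with 9 free bases between them and to which ATF6 and XBP1 are known to bind with NF-Y, was present on either strand in 8 of the 28 promoters, against 39 of 32851 promoters in the whole table (0.119%). These were the promoters of Calr, Canx, Creld2, Dnajc3, Hsp90b1, Hspa5, Pdia6 and Syvn1. The variant ERSE-II, ATTGG and CCACG with 1 free base between them, was found for Dnajb11 and Herpud1 and in 0.0365% of all promoters. The C/EBP-ATF response element (CARE), TGATGNAA, to which ATF4 is known to bind, was found for Asns, Chac1, Herpud1 and Trib3 and in 3.97% of all promoters. The core of the XBP1 element, TGACGTGG, was found in 0 of the 28 and in 0.676% of all promoters. A match is a string of letters, not a shown binding site. The 120 bases before the start of 3 genes of protein disposal and co-chaperone function are given 5′ to 3′ on the gene strand, with the matched element in capitals, because they show the complete element, the ERSE-II variant and its combination with a CARE. Herpud1 lies at chr8:94386309-94386428, Dnajc3 at chr14:118937812-118937931 and Syvn1 at chr19:6046456-6046575, all on the plus strand.
Herpud1: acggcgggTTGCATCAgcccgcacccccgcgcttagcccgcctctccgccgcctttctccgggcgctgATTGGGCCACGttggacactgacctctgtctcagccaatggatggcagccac
Dnajc3: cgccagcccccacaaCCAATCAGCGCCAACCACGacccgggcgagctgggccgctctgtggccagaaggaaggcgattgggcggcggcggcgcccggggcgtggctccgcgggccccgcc
Syvn1: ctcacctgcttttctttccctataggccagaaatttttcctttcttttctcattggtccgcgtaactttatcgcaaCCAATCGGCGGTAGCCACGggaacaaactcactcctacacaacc

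For the remaining genes with an element before the RefSeq start, only the element is given, with its fixed letters in capitals and its free letters in lower case. The elements of Calr, Creld2 and Chac1 and the nearer element of Hsp90b1 run in reverse orientation. The elements lie at chr2:34772025-34772043 for Hspa5, chr8:84847075-84847093 for Calr, chr10:86705638-86705656 and chr10:86705533-86705551 for Hsp90b1, chr11:50325800-50325818 for Canx, chr12:17266491-17266509 for Pdia6, chr15:88819520-88819538 for Creld2, chr6:7693225-7693232 for Asns and chr2:119351049-119351056 for Chac1.
Hspa5, ERSE: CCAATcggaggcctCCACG
Calr, ERSE: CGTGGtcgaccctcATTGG
Hsp90b1, ERSE far from the start: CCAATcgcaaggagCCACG
Hsp90b1, ERSE near the start: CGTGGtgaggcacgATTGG
Canx, ERSE: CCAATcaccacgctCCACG
Pdia6, ERSE: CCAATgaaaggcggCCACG
Creld2, ERSE: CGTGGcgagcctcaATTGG
Asns, CARE: TGATGaAA
Chac1, CARE: TTgCATCA

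The genes themselves are protein coding and spread over the genome. In the GENCODE annotation of GRCm38, Hspa5 (ENSMUSG00000026864) spans chr2:34771970-34777547 on the plus strand, Sdf2l1 (ENSMUSG00000022769) chr16:17130138-17132383 on the minus strand, Ppp1r15a (ENSMUSG00000040435) chr7:45522916-45526268 on the minus strand, Asns (ENSMUSG00000029752) chr6:7675169-7693254 on the minus strand and Ern1 (ENSMUSG00000020715) chr11:106394650-106487852 on the minus strand. GENCODE and RefSeq place some starts differently, and the printed elements of Hspa5 and Asns lie before the RefSeq start but inside the GENCODE gene.

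The libraries held 2330 to 5202 cell barcodes and 29059956 to 53244403 UMIs (unique molecular identifiers, each counting 1 captured mRNA molecule). Of 23083 barcodes in all, 21698 were kept, and 10 to 39 barcodes were shared by a given pair of libraries. Clusters were named from marker lists, and each class name below stands for cells that resemble that type by those markers ("lactotrope-like" and so on). All 8 peptide neuron markers, all 7 corticotrope markers and all 8 gonadotrope markers were higher in their class than in the rest of the tissue in both libraries, but only 5 of 8 lactotrope, 5 of 7 thyrotrope and 5 of 7 somatotrope markers were. The lactotrope markers Agtr1b and Lepr were at 0. Because the same lists named the clusters, marker counts describe the classes and do not test their names. A level is given as the UMIs of a gene summed over the cells of a class and divided by all UMIs of those cells, in CPM, first for the control and then for the stress library. On this scale growth hormone mRNA (Gh) was present in every pituitary class, at 29362 and 35021 CPM in stem/folliculostellate cells and at 142190 and 135759 CPM in thyrotropes. All 32 genes had at least 1 UMI in each library. Trib3 in the PVN and adrenal, and Chac1 in the adrenal, fell under 100 UMIs over the control and stress libraries of the organ and are not compared there.

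The 32 genes were measured first across 23 classes with at least 50 cells in both libraries. Their summed level was highest in 3 classes of the control libraries, of which lactotropes and adrenal macrophages were also highest under stress. It was 7022 and 7992 CPM in lactotropes, 7173 and 5414 CPM in thyrotropes, and 7127 and 7706 CPM in adrenal macrophages. It was low in oligodendrocytes, at 2752 and 2939 CPM, and in somatotropes, at 2961 and 2813 CPM, although somatotropes make growth hormone in bulk. In somatotropes 57.4% and 60.9% of all UMIs came from 24 hormone genes, which lowers the CPM of every other gene. Counts and medians for hormone cells against other pituitary cells are therefore given with and without the hormone genes in the total. The class levels, their order and the correlations between genes keep all UMIs in the total. Low places of somatotropes and other hormone classes there hold for that scale only.

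**Figure D1:**
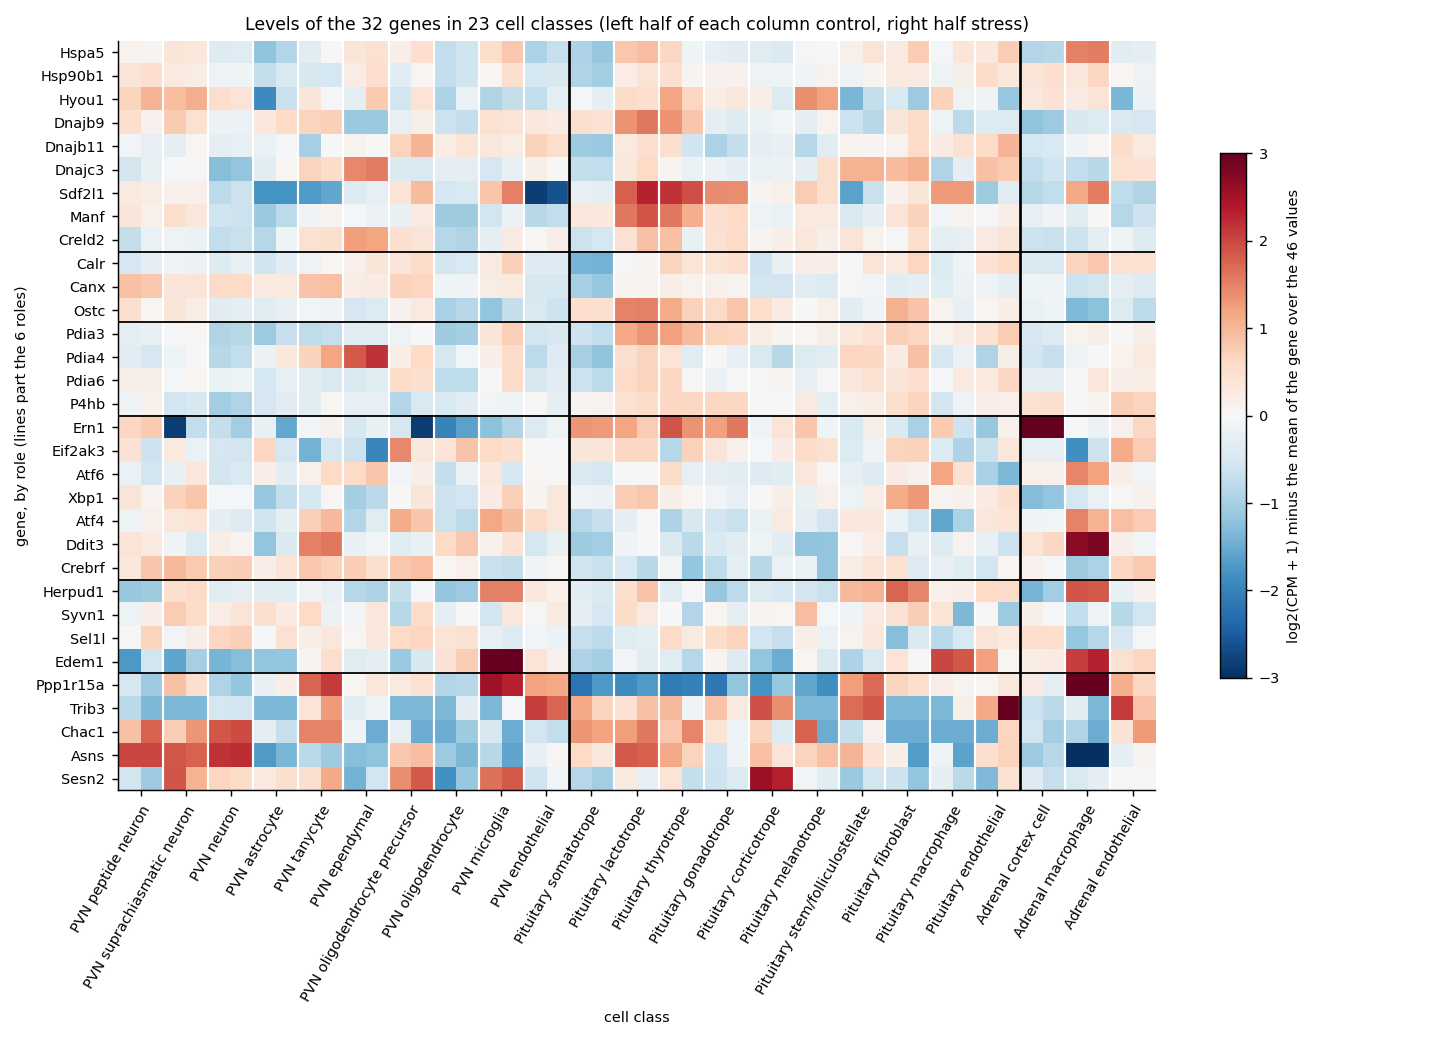
Levels of the 32 genes (rows, grouped by role) in the 23 cell classes (columns). Each cell is split into control (left) and stress (right), and colour gives log2(CPM + 1) minus the mean of that gene over the 46 values, cut at 3 in either direction. Adrenal macrophages are high for Hspa5, Ddit3, Herpud1 and Ppp1r15a, and lactotropes and thyrotropes for Sdf2l1, Manf, Dnajb9 and Pdia3.

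Among the chaperones, Hspa5 (BiP, the main ER chaperone and the brake on all 3 sensors) had a median level of 632 CPM over the 23 control classes and 645 CPM over the stress classes. It was highest in adrenal macrophages, at 1849 CPM (95% Poisson interval 1790 to 1910) and 1882 CPM (1834 to 1930). Lactotropes followed, at 1122 and 1226 CPM, and somatotropes had 338 and 294 CPM. The order of the classes was alike in both conditions, with a Spearman rho of 0.89 between the control and stress levels over the classes.

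Sdf2l1, a co-chaperone that works with the BiP cycle, varied most among the chaperones. It was 402 CPM (348 to 461) and 340 CPM (299 to 384) in thyrotropes, 307 CPM (290 to 325) and 440 CPM (421 to 460) in lactotropes, and 237 and 235 CPM in gonadotropes. PVN endothelial cells had 11.6 and 13.7 CPM. The intervals of the pituitary classes and of the endothelial cells lie far apart in both libraries.

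Manf, a secreted ER-resident neurotrophic factor, was highest in lactotropes at 922 and 1139 CPM and stood at 141 and 177 CPM in astrocytes. Dnajb9 (ERdj4), a co-chaperone that restrains IRE1, was also highest in lactotropes, at 297 and 352 CPM. Lactotropes and thyrotropes thus lead 3 of the 9 chaperone genes in the control libraries. Dnajc3 (p58IPK) and Creld2, a co-chaperone and an ER-resident ER stress gene, had another order. Both were highest in ependymal cells, Dnajc3 at 371 and 392 CPM and Creld2 at 134 and 126 CPM. Dnajc3 was lowest in PVN neurons, at 54.9 and 58.7 CPM. Hsp90b1 (GRP94), the ER paralogue of HSP90, differed less between classes, from 229 CPM in somatotropes to 630 CPM in pituitary endothelial cells of the control library. Hyou1, a large HSP70-like nucleotide exchange factor, was highest in melanotropes at 34.3 and 30.3 CPM.

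Of the lectin chaperones, which hold glycoproteins until they are folded, Calr was highest in adrenal macrophages at 624 and 687 CPM and lowest in somatotropes at 147 and 144 CPM. Canx, its membrane-bound counterpart, was highest in PVN peptide neurons in the control library, at 485 CPM, against 466 CPM under stress. Tanycytes had 475 and 493 CPM of Canx, so the leading class differed between the libraries. Ostc, a subunit of the oligosaccharyltransferase, was highest in lactotropes at 527 and 538 CPM and lowest in adrenal macrophages at 75 and 80.0 CPM. The class highest for Calr was thus the lowest for Ostc.

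The disulfide isomerases Pdia3 and Pdia6 were again high in lactotropes and thyrotropes. Pdia3 was 884 and 1011 CPM in lactotropes and 950 and 777 CPM in thyrotropes, against 189 and 249 CPM in astrocytes. Pdia6 was 403 and 428 CPM in lactotropes and 412 and 276 CPM in thyrotropes. Pdia4 differed from both, with its highest level in ependymal cells (283 and 351 CPM) and its lowest in somatotropes (38.5 and 32.9 CPM). P4hb, the prototype protein disulfide isomerase and a subunit of collagen prolyl hydroxylase, was highest in adrenal endothelial cells at 138 and 131 CPM.

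Of the sensors, Ern1 stood out in a single class. Adrenal cortex cells, which make steroids rather than peptides, had 62.9 CPM (59.7 to 66.3) and 67.4 CPM (64.1 to 70.9), while the median over the classes was 5.78 and 5.67 CPM. Somatotropes had 17.3 and 16.6 CPM. No UMI of Ern1 was counted in suprachiasmatic neurons of the control library or in oligodendrocyte precursors of the stress library. Atf6 was highest in adrenal macrophages at 42.3 and 34.7 CPM. Eif2ak3 was low throughout, with at most 23.3 CPM in control and 15.1 CPM in stress classes, and its class order was less alike between conditions (rho 0.50).

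Xbp1, the IRE1 target, was highest in pituitary fibroblasts at 334 and 381 CPM and lowest in cortex cells at 62.3 and 67.3 CPM. The class with the highest Ern1 level therefore had the lowest Xbp1 level. Ddit3 (CHOP), which is known for its part in death after prolonged ER stress, was 375 and 412 CPM in adrenal macrophages and 24.0 and 24.6 CPM in melanotropes. Atf4 was highest in adrenal macrophages too, at 256 and 190 CPM. Crebrf, a regulator that binds and inhibits the CREB3 factor, stayed between 14.6 and 62.9 CPM in the control classes.

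Among the ERAD genes, Herpud1, a membrane protein of the degradation complex, was 477 and 464 CPM in adrenal macrophages, 431 and 355 CPM in pituitary fibroblasts and 48.7 and 62.2 CPM in cortex cells. Edem1, a mannosidase-like lectin that picks glycoproteins for degradation, was 145 and 125 CPM in microglia and only 3.25 and 8.65 CPM in PVN peptide neurons. Sel1l, the scaffold of the ubiquitin ligase complex, was highest in PVN neurons at 85.5 and 90.5 CPM. Syvn1 (HRD1), the ligase that SEL1L holds, showed almost no shared class order between the conditions (rho 0.11), at levels that never passed 30.8 CPM in control classes. Herpud1, Edem1 and Sel1l were thus each highest in a different class.

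Ppp1r15a and Asns spanned the widest ranges of the eIF2 group. Ppp1r15a was 893 CPM (852 to 936) and 1003 CPM (969 to 1039) in adrenal macrophages, 573 and 495 CPM in microglia and 20.6 CPM (19.2 to 22.2) and 28.7 CPM (27.0 to 30.5) in somatotropes. The larger adrenal macrophage cluster and a microglial cluster were led by the inflammatory genes Cxcl2, Il1b and Ccl3, and by Il1a, Ccl2 and Cxcl2. The larger adrenal macrophage cluster held 278 control and 397 stress cells.

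Asns, the enzyme of asparagine synthesis and an ATF4 target, ran the other way. It was 89.9 CPM (85.3 to 94.7) and 93.1 CPM (88.4 to 98.0) in PVN neurons, 80.4 and 80.7 CPM in peptide neurons and 70.8 and 69.3 CPM in lactotropes. Adrenal macrophages had 2 UMIs of Asns in each library, which gives 1.01 and 0.638 CPM. Sesn2, a leucine sensor upstream of mTORC1, was highest in corticotropes, at 48.0 CPM (38.2 to 59.4) and 40.4 CPM (31.5 to 50.9), against a class median of 5.71 and 5.74 CPM. Chac1, which degrades glutathione, was highest in PVN neurons at 9.28 and 10.1 CPM. Trib3, a pseudokinase that is a target of ATF4 and CHOP, did not pass 9.84 CPM in control classes, and its highest stress value was 20.6 CPM in pituitary endothelial cells, where the control library had 4.6 CPM.

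**Figure D2:**
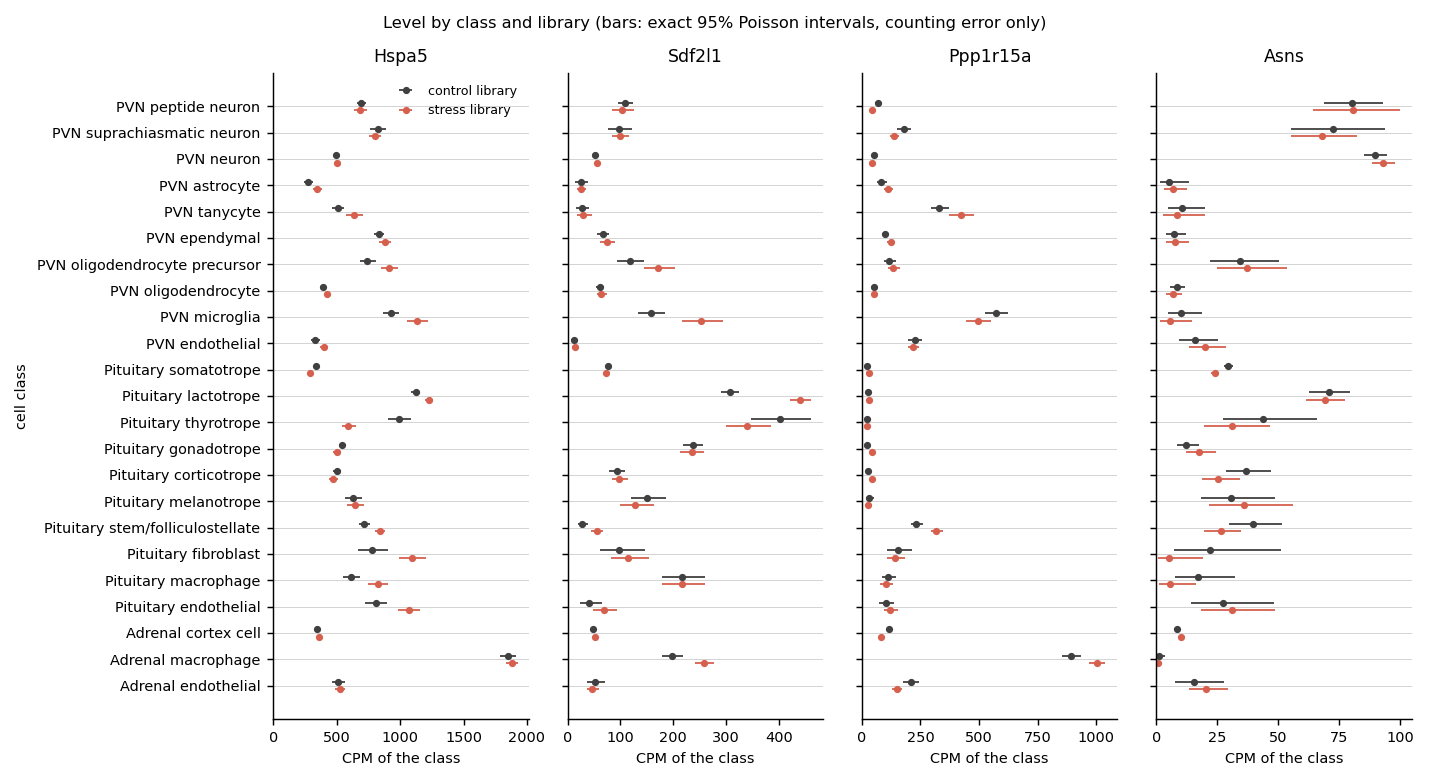
Levels of Hspa5, Sdf2l1, Ppp1r15a and Asns in CPM on a linear axis of its own for each gene, by cell class. Black points are the control and red points the stress library, with exact 95% Poisson intervals for counting error. Ppp1r15a reaches 893 and 1003 CPM in adrenal macrophages, where Asns is lowest at 1.01 and 0.638 CPM.

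The genes were compared with each other over 46 values, the 23 classes in 2 conditions. These points share libraries and depth, so the correlations describe these samples only. The most alike pair was Manf and Ostc (rho 0.83), followed by Pdia3 and Pdia6 (0.79), Hspa5 and Pdia6 (0.74), Hspa5 and Calr (0.73) and Atf4 and Ppp1r15a (0.72). The least alike pair was Edem1 and Asns (-0.61). The median over all 496 pairs was 0.10. It was 0.37 among the 4 isomerases, 0.34 between chaperones and isomerases, 0.24 among the chaperones and -0.09 among the ERAD genes. The 8 genes with an ERSE, whose elements are printed above, had a median of 0.24 over 28 pairs (-0.11 to 0.74), and the 20 genes with a promoter and no ERSE 0.07 over 190 pairs (-0.61 to 0.72). The 2 sets also differ in role and level. Those without an ERSE include Trib3, Chac1 and Ern1, with medians of 1.01, 1.57 and 5.78 CPM over the control classes. Those with an ERSE run from 16.1 CPM for Syvn1 to 632 CPM for Hspa5. The part of role and level was not tested. Among 9212 genes compared, those outside all lists whose level was most like the mean of the 9 chaperones were Copa (0.61), a coat protein of vesicles that return to the ER, Fam46a (0.57), Nucb2 (0.56), the nesfatin precursor, Sdccag8 (0.52) and Emb (0.51).

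To ask whether peptide-secreting cells carry more of these mRNAs, hormone cells of the pituitary (4423 control and 4248 stress cells) were compared with the other pituitary cells (490 and 573). A gene is counted as higher or lower where the log2 ratio of its CPM was at least 1 in that direction in both libraries. The 2 libraries are not replicates of a condition. Ern1 and Chac1 were higher in hormone cells, and Ppp1r15a, Edem1, Dnajc3, Herpud1 and Dnajb11 were lower. These are 2 higher and 5 lower of 32 genes, while 6.5% of all genes tested were higher and 37.1% lower. The median log2 ratio of the 32 genes was -0.54 in the control and -0.61 in the stress library, against -0.79 and -0.89 for all genes tested.

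Ern1 stood at 16.6 against 5.29 CPM in the control and 15.9 against 6.44 CPM in the stress library, log2 ratios of 1.61 and 1.28. The other cells had only 3 and 7 UMIs of Chac1, and its ratios of 2.31 (95% interval 0.97 to 4.82) and 1.48 (0.51 to 2.90) are correspondingly loose. Ppp1r15a was 21.5 against 156 CPM and 29.8 against 208 CPM, log2 ratios of -2.86 and -2.80. Of the other genes counted as lower, Edem1 had ratios of -1.39 and -1.34, Dnajc3 -1.31 and -1.33, Herpud1 -1.25 and -1.21, and Dnajb11 -1.14 and -1.16. Immediate-early genes, which respond within minutes to stimulation or tissue handling, moved with Ppp1r15a. Of 15 tested, 14 were lower in hormone cells (median -3.52 and -2.49), as were 6 of 12 heat-shock genes. Without the hormone genes in the total, 12 of the 15 immediate-early genes were lower (median -2.61 and -1.49). On that scale 2 of the 12 heat-shock genes were lower, against 16.8% of all genes. The part of both lists in the result was not tested.

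Several folding genes lay above 0 without reaching the threshold. Dnajb9 had 0.69 and 0.83, Sdf2l1 0.64 and 0.45, Manf 0.56 and 0.49 and Ostc 0.52 and 0.53. Hspa5 lay below 0, at 438 against 723 CPM and 406 against 888 CPM, log2 ratios of -0.72 and -1.13. When the 24 hormone genes were left out of the total, all ratios moved up together. The median of the 32 genes became 0.37 and 0.38 and that of all genes 0.12 and 0.11. On that scale 9 genes were higher (15.2% of all genes) and 1 lower (16.8%). Hspa5 then stood at 0.18 and -0.13, and Ppp1r15a at -1.95 and -1.81.

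**Figure D3:**
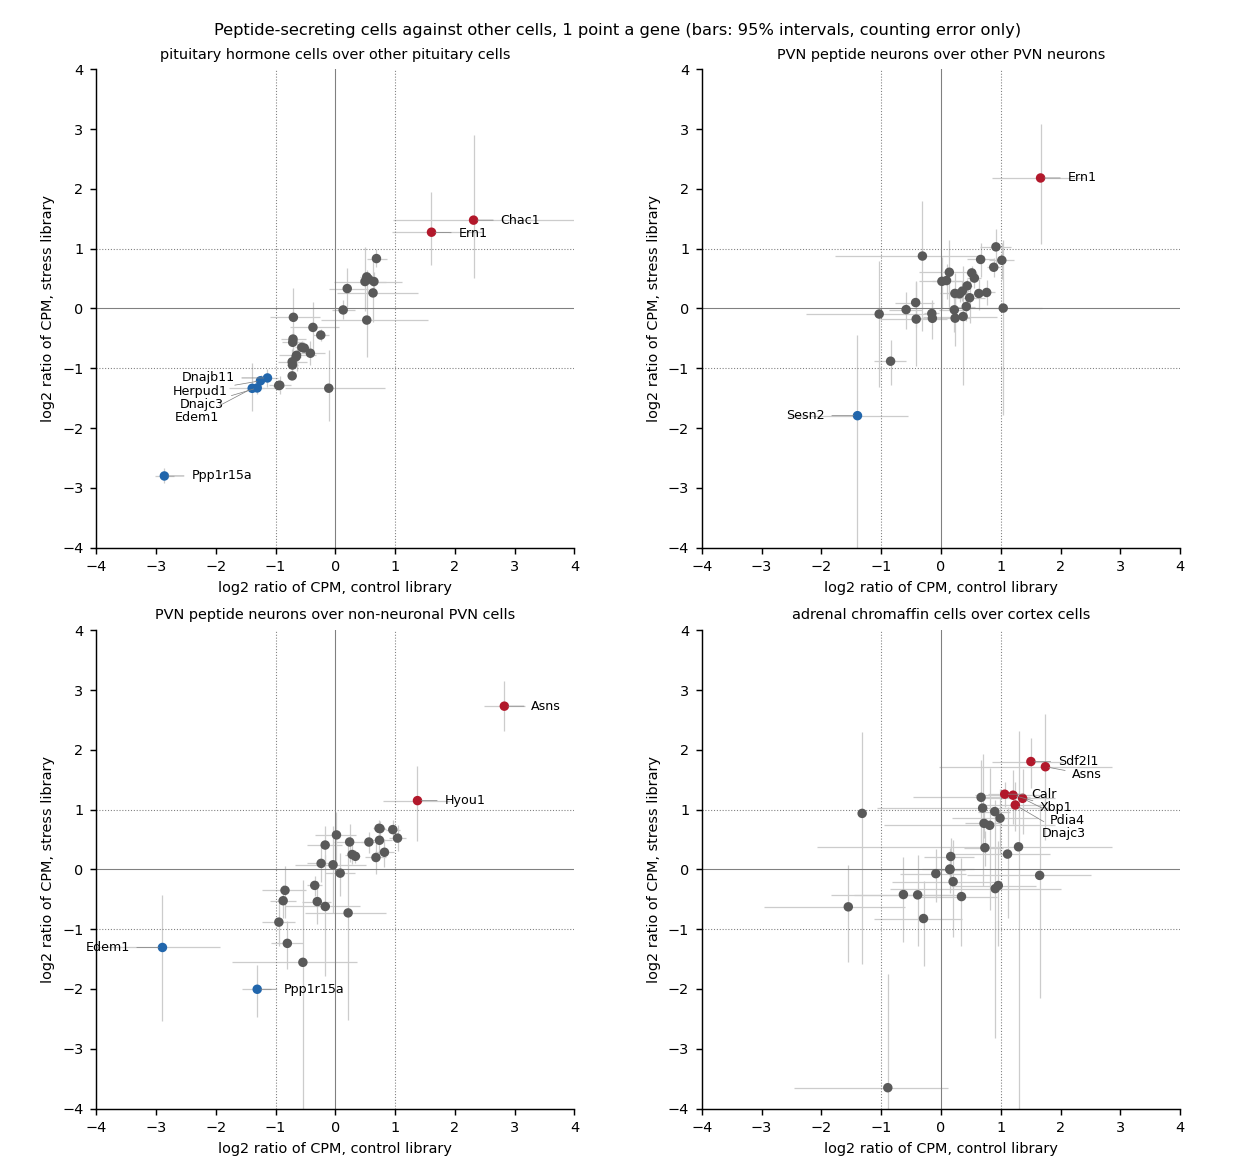
Log2 ratio of each gene between secreting and other cells, control library on the horizontal and stress library on the vertical axis, for pituitary hormone cells, for PVN peptide neurons against other neurons and against non-neuronal cells, and for adrenal chromaffin cells. Grey bars are 95% intervals for counting error and dotted lines a ratio of 1 or -1. Red points are at or above 1 and blue points at or below -1 in both libraries. Ppp1r15a is the lowest point among hormone cells, at -2.86 and -2.80.

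The hormone classes differed from one another. All 32 genes were tested in somatotropes, 29 in lactotropes, 28 each in corticotropes and gonadotropes, and 26 each in melanotropes and thyrotropes. Genes under 100 UMIs were not counted, among them Chac1 in lactotropes (2.34 and 1.98). In melanotropes these included Hyou1 (1.90 and 1.90) and Trib3 (-2.48 and -3.05). Lactotropes had 5 genes higher and 1 lower than the other pituitary cells, where 6.26% of all genes tested were higher and 24.9% lower. The 5 were Sdf2l1 (2.11 and 2.31), Manf (1.62 and 1.8), Dnajb9 (1.5 and 1.87), Ostc (1.38 and 1.42) and Asns (1.31 and 1.62), and Ppp1r15a was lower (-2.60 and -2.82). Somatotropes had 2 higher and 8 lower, with 5.03% and 46.8% of all genes. Their 8 lower genes included Hspa5, Calr, Pdia4 and Herpud1. Without the hormone genes in the total, somatotropes had 9 higher (15% of all genes) and 1 lower (17.3%), the 9 being Hyou1, Dnajb9, Manf, Ostc, P4hb, Ern1, Eif2ak3, Chac1 and Asns. On that scale lactotropes had 8 higher (9.17%) and 1 lower (19.6%). Their 5 genes were joined by Hyou1, Pdia3 and Ern1.

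Sdf2l1 was higher in both thyrotropes and gonadotropes, at 2.50 and 1.94 in thyrotropes and at 1.74 and 1.41 in gonadotropes. Thyrotropes also had Dnajb9 higher (1.5 and 1.11), which made 2 higher (3.66% of all genes) and 2 lower (28.3%). Gonadotropes also had Ern1 higher (1.56 and 1.67), with 2 higher (6.61%) and 3 lower (26.2%). In corticotropes, which make ACTH and drive the adrenal cortex, 1 gene was higher and 3 were lower on either scale (7.13% and 21.2% of all genes on the full total, 9.24% and 19.3% without hormone genes). That gene was Sesn2, at 3.54 and 2.88, and the lower genes were Herpud1, Edem1 and Ppp1r15a. Melanotropes, which cleave the same POMC precursor further, had 0 higher (4.17%) and 3 lower (27%) of 26 tested, namely Ddit3, Herpud1 and Ppp1r15a. Without the hormone genes in the total, Manf joined Sdf2l1 and Dnajb9 in thyrotropes (3 higher, 6.14% of all genes; 1 lower, 21.1%), Sdf2l1 was higher in melanotropes (1 higher, 10.4%; 1 lower, 17.7%), and gonadotropes had 2 higher (9.74%) and 2 lower (20.6%). Ppp1r15a was lower in all 6 classes on both scales.

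**Figure D4:**
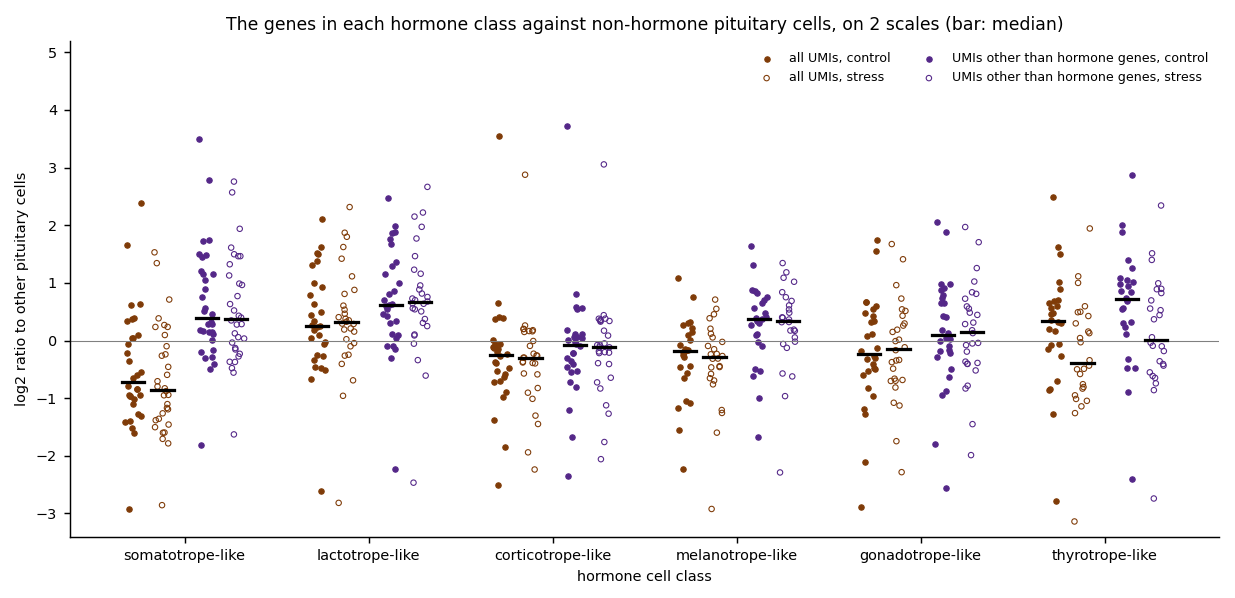
Log2 ratio between a hormone class and the other pituitary cells for those of the 32 genes with at least 100 UMIs in that comparison. Brown points have all UMIs in the total and purple points leave out the 24 hormone genes, with control filled and stress open. Horizontal bars mark medians. The somatotrope medians move from -0.72 and -0.85 to 0.39 and 0.37, and the corticotrope medians only from -0.25 and -0.30 to -0.08 and -0.12.

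In the PVN, the neuroendocrine peptide neurons (120 control and 61 stress cells) expressed Oxt at 55618 and 56521 CPM and Avp at 25230 and 19660 CPM. Crh was 210 and 35 CPM and Trh 1166 and 2638 CPM. The class joins a cluster led by Oxt, Sst and Avp (101 and 43 cells) with one led by Trh (19 and 18 cells), so its mix differed between the libraries. The peptide neurons were compared with the other neurons (1468 and 1515), which include the suprachiasmatic neurons, with Avp at 20432 and 18981 CPM. The other neurons also include clusters led by the peptide genes Pmch, Gal, Npvf and Hcrt. The comparison is therefore not one of neurons with peptides against neurons without them. Ern1 was higher, at 10.2 against 3.26 CPM and 11.5 against 2.62 CPM, log2 ratios of 1.67 and 2.18 on 22 and 12 UMIs. Sesn2 was lower, with ratios of -1.40 and -1.79 on 10 and 3 UMIs. Ern1 and Sesn2 make 1 higher and 1 lower of 31 genes tested, with 1.45% and 5.34% of all genes. Sesn2 stood at 0.19 and 0.24 where neurons with at least 10 UMIs of Oxt, Avp, Crh or Trh were taken instead. Those 186 control and 172 stress cells were drawn from all neuron classes, the suprachiasmatic neurons among them, and so are another set of cells. Of the genes tested, 19 lay above and 7 below 0 in both libraries, with no share of all genes available for these counts. The median was 0.31 and 0.25 against -0.27 and -0.21 for all genes.

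The folding genes Sdf2l1, P4hb, Manf and Dnajc3 lay above 0 in both libraries without reaching the threshold in both. Sdf2l1 was 108 against 53.6 CPM in the control and 104 against 59.6 CPM in the stress library (1.02 and 0.81). P4hb had ratios of 0.92 and 1.03, Manf 0.88 and 0.69 and Dnajc3 0.66 and 0.82. Hspa5 was 694 against 512 CPM and 684 against 527 CPM, ratios of 0.44 and 0.38. Herpud1 lay on the other side, at 58.1 against 105 CPM and 60.5 against 112 CPM (-0.84 and -0.88).

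Against the non-neuronal PVN cells (1843 and 1821), Asns was higher in peptide neurons, at 80.4 against 11.3 CPM and 80.7 against 12.2 CPM (2.83 and 2.73). Hyou1 was higher too (1.37 and 1.15). Ppp1r15a was lower, at 68.3 against 170 CPM and 45.2 against 183 CPM (-1.31 and -2.0), and so was Edem1 (-2.89 and -1.31 on 7 and 9 UMIs). These are 2 higher and 2 lower of 29 tested, with 11.7% and 27.9% of all genes. Here 11 of 15 immediate-early genes were lower as well, and their part in the result was not tested.

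In the adrenal, chromaffin cells of the medulla, which secrete catecholamines together with granins and peptides, numbered 19 in the control and 30 in the stress library. They were compared with the steroid-making cortex cells (1555 and 1734). All 10 chromaffin markers were higher, with Chgb at 27575 and 33456 CPM, but the cortex mRNA Star was still present in chromaffin cells at 674 and 75 CPM. Of 30 genes tested 6 were higher (11% of all genes) and 0 lower (7.82%). Sdf2l1 was 136 against 48.8 CPM and 182 against 52.7 CPM (1.5 and 1.8), and Xbp1 141 against 62.3 CPM and 157 against 67.3 CPM (1.21 and 1.24). Calr (1.07 and 1.26), Pdia4 (1.37 and 1.19), Dnajc3 (1.24 and 1.08) and Asns (1.75 and 1.72, on 5 and 9 UMIs) made up the rest. Hspa5 came close, at 0.90 and 0.97. Ern1 ran the other way, at 31.4 against 62.9 CPM and 3.58 against 67.4 CPM, on 6 and 1 UMIs in chromaffin cells. The median was 0.73 and 0.31, against 0.09 and -0.03 for all genes.

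The steps that lead into and out of ER folding were read from 6 further lists, which hold no member of the 32. In pituitary hormone cells, where 6.5% of all genes were higher and 37.1% lower, 0 of 22 translocon and signal peptide genes were higher and 0 lower, and the ratio was highest for Ssr4 (0.42 and 0.71) and lowest for Sec11a (-0.89 and -0.95). Of 16 N-glycan genes 3 were lower (Stt3b lowest, -1.37 and -1.52), as were 3 of 22 redox and folding factors (Ppib lowest, -3.31 and -3.18) and 6 of 22 further ERAD genes (Aup1 lowest, -1.75 and -2.0). Of the other sensors and transcription factors 8 of 14 were lower, with the stress factor Atf3 lowest at -7.70 and -6.32. Among other eIF2 kinases and targets 14 of 30 were lower (Phgdh, of serine synthesis, lowest at -6.25 and -5.84) and 1 higher (Vldlr). Granule and prohormone genes, given for contrast, were higher in 11 of 12. Without the hormone genes in the total (15.2% of all genes higher, 16.8% lower), 10 translocon, 0 N-glycan, 2 redox, 1 ERAD, 1 sensor and 3 eIF2 genes were higher, and 0, 0, 2, 0, 2 and 6 lower in the same order.

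In PVN peptide neurons against other neurons, each of 4 lists had 1 gene higher and 0 lower (1.45% and 5.34% of all genes). These were Sec61b of the translocon (1.09 and 1.02), Magt1 of the oligosaccharyltransferase (1.30 and 1.41), the isomerase Pdia5 (1.52 and 1.35) and the factor Creb3l2 (2.37 and 1.91). None of 22 ERAD and 28 eIF2 genes passed in either direction. Against non-neuronal cells (11.7% and 27.9% of all genes), 3 of 22 translocon, 2 of 16 N-glycan, 4 of 21 redox, 3 of 21 ERAD, 0 of 13 sensor and 1 of 31 eIF2 genes were higher, and 0, 1, 2, 2, 5 and 11 were lower in the same order. In chromaffin cells (11% and 7.82% of all genes), 0 of 22, 2 of 16, 2 of 22, 0 of 21, 0 of 13 and 1 of 29 were higher, and 0, 1, 2, 0, 0 and 2 lower.

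The effect of chronic social defeat was then read within each class. A gene was compared in a class where it had at least 100 UMIs over both libraries, which gave 481 pairs of gene and class, and a difference of 1.5-fold or more is counted. Most values were small. In 7 of the 481 pairs (1.46%) the gene was higher and in 3 (0.624%) lower in the stress library, against 1.52% and 2.01% of all gene and class pairs, so the share past the threshold was no larger than for genes at large. In 302 of the 481 pairs (62.8%) the value lay above 0, against 46.9% of all gene and class pairs. Over the classes, Xbp1 lay above 0 in 19 of 23, Pdia6 in 18, and Hspa5 and Pdia3 in 17 each. The counting interval of Hspa5 lay above 0 in 12 classes and below 0 in 2. Intervals narrow as UMIs rise, and no share over all genes is available for intervals off 0. The share of all genes above 0 is known only over the classes together, so single classes are given with the median of all genes.

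**Figure D5:**
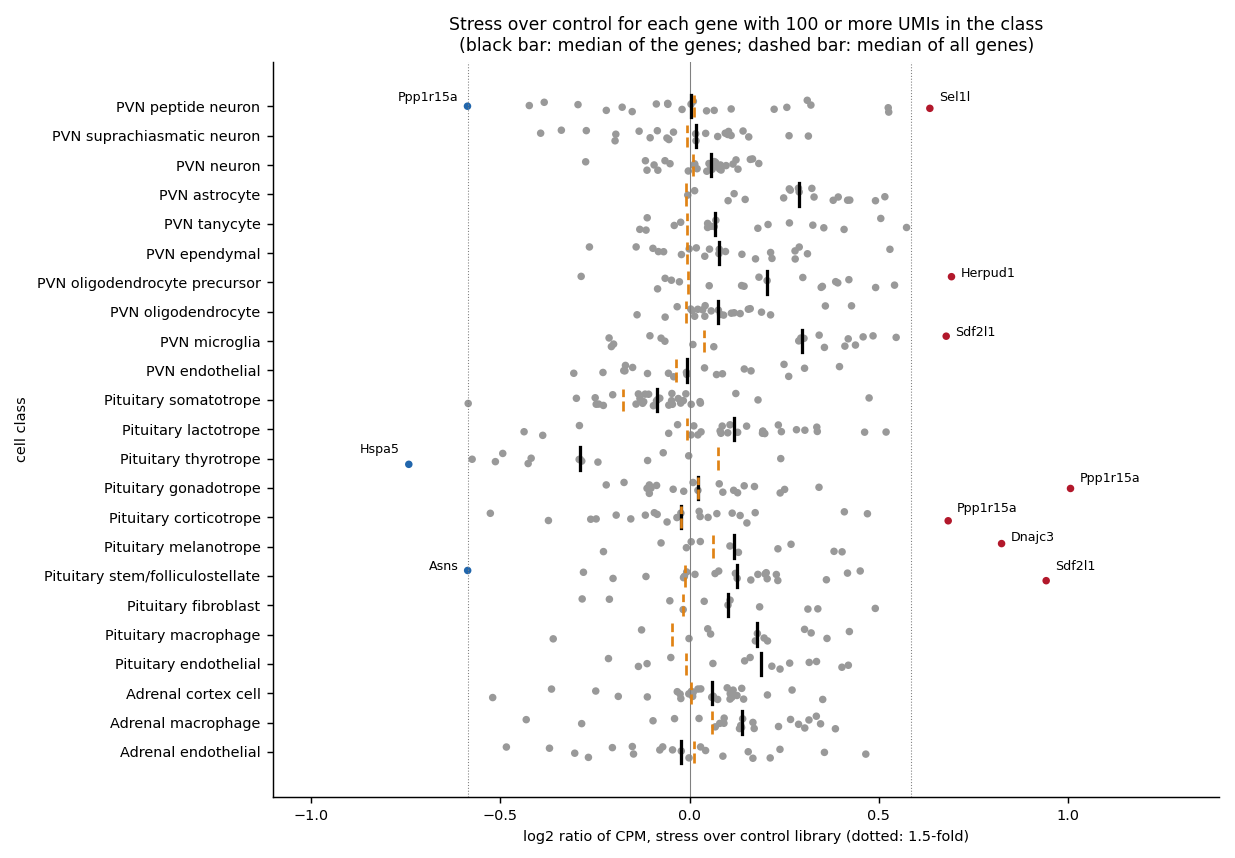
Log2 ratio of stress over control for each of the 32 genes that had enough UMIs, by cell class. Black bars mark the median of these genes, orange dashed bars the median of all genes, and dotted lines a 1.5-fold difference, past which points are red or blue and named. Thyrotropes have their median at -0.29, below that of all genes, and Hspa5 at -0.74.

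The lowest of the 481 values was that of Hspa5 in thyrotropes (80 and 106 cells), which make thyroid-stimulating hormone. It went from 992 CPM (907 to 1083) to 593 CPM (539 to 651), a log2 ratio of -0.74 (95% interval -0.93 to -0.55), where 1.97% of all genes in that class were lower by 1.5-fold. The middle cell had 825 CPM in the control and 515 CPM in the stress library, and no cell gave more than 10.0% of the UMIs. Of 14 genes compared, 13 lay below 0, and 8 had an interval below 0, with no share of all genes available for either count. Pdia6 went from 412 to 276 CPM (-0.57), Dnajb9 from 296 to 208 CPM (-0.51), Manf from 920 to 654 CPM (-0.49) and Hsp90b1 from 614 to 460 CPM (-0.42). Herpud1 lay above 0 at 0.24. The median was -0.29 against 0.07 for all genes, and -0.26 without the hormone genes. In the same cells the mitochondrial share went from 8.65% to 7.04%, the immediate-early genes had a median of 1.84 and the heat-shock genes 0.49. The 8 lactotrope markers summed to 19995 CPM in the control and 6867 CPM in the stress thyrotropes, nearly all of it Prl (19954 and 6830 CPM), with 4 of the 8 at 0 in both, while Cga, the hormone subunit that thyrotropes and gonadotropes share, went from 87389 to 118889 CPM. The part of these genes in the result was not tested.

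Lactotropes (501 and 520 cells) lay in the other direction, though without any gene past 1.5-fold (1.12% of all genes higher and 1.96% lower). Of 28 genes 23 lay above 0, and 13 had an interval above 0 and 0 below, again with no share of all genes available. The highest was Sdf2l1, from 307 to 440 CPM, 0.52 (0.42 to 0.62), and it stood at 0.57 and 0.31 in the 2 clusters that make up the class. Creld2 followed with 0.46, Herpud1 and Atf4 with 0.34 each, and Manf with 0.30. Ern1 was lowest, at -0.44. The median was 0.12 against -0.01 for all genes, and 0.11 without the hormone genes. Heat-shock genes had a median of 0.57 in the same class, with Hspa1a at 3.17, and their part in the result was not tested. Whether lactotropes and thyrotropes differed in their response was not tested, since there is 1 pool of each condition.

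Sdf2l1 was also counted as higher in microglia, from 158 to 253 CPM, 0.68 (0.36 to 1.00; 2.89% of all genes higher). It was higher in stem/folliculostellate cells as well, from 28.4 to 54.9 CPM, 0.94 (0.42 to 1.52; 1.41%). In both microglial clusters it lay above 0, at 0.83 and 0.45, and in both stem cell clusters, at 0.75 and 1.41. The microglial median over 20 genes was 0.30 against 0.04 for all genes, with Pdia6 at 0.55, Xbp1 at 0.48 and Calr at 0.44. All 8 heat-shock genes tested in microglia were above 0, with a median of 0.55. The heat-shock median of the stem cells was 0.58, and the part of these genes in the results was not tested. Astrocytes had 17 of 18 genes above 0 and a median of 0.29 against -0.01 for all genes, with 0 past 1.5-fold (1.24% of all genes higher). Their heat-shock median was 0.17.

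Ppp1r15a was the gene counted most often, and in both directions. It went from 21.0 to 42.4 CPM in gonadotropes, 1.01 (0.50 to 1.54; 1.79% of all genes higher). In corticotropes it went from 27.2 to 43.8 CPM, 0.68 (0.15 to 1.24; 2.21%). Without the hormone genes in the total these were 0.99 and 0.70. Over all kept pituitary cells it was 0.53. In PVN peptide neurons it went from 68.3 to 45.2 CPM, -0.59 (-1.1 to -0.11; 1.66% of all genes lower). Those neurons fell into 2 clusters that went opposite ways. The cluster led by Oxt, Sst and Avp had -0.98 on 130 and 27 UMIs, and the cluster led by Trh had 0.49 on 17 and 20 UMIs. With every cell thinned to 1000 UMIs the value for the whole class was 0.043. In thyrotropes, with the raised immediate-early median given above, Ppp1r15a stood at 22.9 CPM under stress. It had under 100 UMIs there and was not compared. Immediate-early genes moved in the same direction as Ppp1r15a in gonadotropes, corticotropes and peptide neurons. Their median was 1.08 in gonadotropes, 1.05 in corticotropes and -0.47 in peptide neurons, where 0 of 11 lay above 0, and their part in the result was not tested. In cortex cells Ppp1r15a went from 115 to 80.1 CPM (-0.52), short of the threshold, with an immediate-early median of -0.60.

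The remaining counted pairs were single genes. Sel1l was higher in peptide neurons, from 55.8 to 86.5 CPM, 0.63 (0.22 to 1.04; 2.18% of all genes higher). It stood at 0.42 in the cluster led by Oxt, Sst and Avp (101 and 43 cells), short of the threshold, and at 0.80 in the cluster led by Trh (19 and 18 cells). Herpud1 was higher in oligodendrocyte precursors, from 78.1 to 127 CPM, 0.69 (0.21 to 1.19; 1.01% of all genes higher and 1.32% lower), where Hspa1a stood at 3.02 and the heat-shock median at 0.56. Dnajc3 was higher in melanotropes, from 110 to 195 CPM, 0.82 (0.36 to 1.30; 4.9%; 0.91 without the hormone genes), with a heat-shock median of 0.80. The part of the heat-shock genes was not tested in either class. Asns was lower in stem/folliculostellate cells, from 39.7 to 26.4 CPM, -0.59 (-1.16 to -0.01; 1.06% of all genes lower), and stood at -0.58, short of the threshold, without the hormone genes.

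Somatotropes, cortex cells and adrenal macrophages had 0 genes past 1.5-fold. Of all genes, 0.614% were higher and 4.06% lower in somatotropes, 1.73% and 2.37% in cortex cells and 3.8% and 3.22% in adrenal macrophages. In somatotropes 26 of 32 genes lay below 0, with a median of -0.09 against -0.18 for all genes, and the median was 0.04 without the hormone genes, so the direction rests on the scale. Hspa5 stood at -0.20 and Ppp1r15a at 0.47. Trib3 was lowest, at -0.5848 with a counting interval below 0, and fell only just short of the 1.5-fold threshold. In peptide neurons, with Sel1l and Ppp1r15a as the exceptions past 1.5-fold, 12 of 23 genes lay above 0. The median there was 0.00 against 0.01 for all genes. In cortex cells 21 of 30 lay above 0, the highest being Herpud1 at 0.35, and the median was 0.061 against 0.0048 for all genes. Adrenal macrophages had 19 of 23 above 0, led by Sdf2l1 at 0.39, and Atf4 was lowest at -0.43. Their median was 0.14 against 0.06 for all genes. Of the 12 heat-shock genes 10 were higher by 1.5-fold in those macrophages, and their part in the result was not tested.

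No gene of the 32 passed 1.5-fold in the remaining classes. The share of all genes higher and lower was 0.85% and 1.31% in PVN endothelial cells, 1.35% and 0.902% in ependymal cells, 0.418% and 0.81% in the other PVN neurons, 0.776% and 0.712% in oligodendrocytes, 1.29% and 1.05% in suprachiasmatic neurons and 1.11% and 2.46% in tanycytes. In the pituitary it was 3.11% and 2.04% in endothelial cells, 4.08% and 2.15% in fibroblasts and 2.13% and 3.69% in macrophages, and it was 2.22% and 2.65% in adrenal endothelial cells. Within these classes oligodendrocytes had 20 of 23 genes above 0 and PVN neurons 22 of 30. Their medians were 0.08 and 0.06, against -0.01 and 0.01 for all genes. In tanycytes Xbp1 was highest at 0.57, in ependymal cells Atf4 at 0.53, and in pituitary fibroblasts Hspa5 at 0.49.

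In the 23 classes the further lists were read against the same 1.52% higher and 2.01% lower of all pairs. Of 434 translocon pairs 7 were higher and 2 lower, of 274 N-glycan pairs 2 and 1, of 358 redox and folding pairs 1 and 2, of 302 ERAD pairs 6 and 4, of 150 sensor pairs 4 and 3, and of 271 eIF2 pairs 2 and 8. Granule and prohormone genes were higher in 11 and lower in 5 of 171 pairs. By contrast heat-shock genes were higher in 80 and lower in 0 of 229 pairs, and immediate-early genes higher in 55 and lower in 18 of 267.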

How the data were processed

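Single-cell 3′ libraries (10x v2) were made from papain-dissociated PVN and pituitary and collagenase-dissociated adrenal. The deposited values are UMI counts per gene and cell barcode, made with Cell Ranger 2.1.1 on mm10 per the submitters' processing notes; Scanpy is named there without a role. The counting removes PCR duplicates by UMI and gives mRNA amount, not splicing.

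Barcodes were dropped under 200 genes or over 25% mitochondrial UMIs (378 barcodes of the adrenal stress library and 130 of its control exceeded the limit). In all, 728 barcodes with the highest scores against simulated doublets were removed, a number set by a rate of 0.8% per 1000 cells. Control and stress cells of an organ were clustered together with scanpy 1.11.5 and leidenalg 0.10.2 (2000 variable genes, 30 components, 15 neighbours, resolution 1) under Python 3.11.15 with numpy 2.4.6, scipy 1.17.1 and pandas 2.3.3. A cluster took a name only on 3 or more detected markers. After the clusters were seen, a peptide neuron cluster was required to have Oxt, Avp, Crh or Trh among its top 10 genes, cortex zones were merged, and 417 cells of mixed clusters were left unnamed.

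UMIs were summed per class and library. CPM carry exact Poisson intervals and log2 ratios (0.5 UMI added to each sum) exact binomial intervals at 95% confidence, for counting error only. A gene needed 100 UMIs over the compared groups, and a class 50 cells per library for the stress comparison. Chromaffin cells fell under that number. With 1 pool per group no test across mice was possible, and none was made over cells. The calculation was tested on simulated data. Genes named in the text are the 32 members and, of each further list, those with the highest or lowest ratios. The 32 members and the 9 further lists were chosen with earlier results of these data known. Alternatives covered doublets, the mitochondrial limit, resolution, the scale, cell weighting, thinning to 1000 UMIs, the UMI minimum, the fold and the cells compared. Promoters come from RefSeq (GRCm38.p6) and gene positions from GENCODE. No column of other samples was left out (0).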

Additional observations from a re-analysis of the deposited data

Results flagged for a closer look

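Ppp1r15a passed the 1.5-fold threshold in opposite directions in different classes. Its log2 ratio of stress over control was -0.59 in PVN peptide neurons, 0.68 in corticotropes and 1.01 in gonadotropes. The difference between these classes was not tested, as each value rests on 1 pool per condition.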

How the results depend on the processing

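The counts of genes were recomputed under each alternative; 74 of the alternative counts lay within 1.5 times the reported count and 46 did not. Of the single values and medians, 622 stayed within an interval, 138 moved past it and 19 changed sign. For a single gene this was its counting interval. For a median it was the middle width of its genes' intervals, which is not an interval of the median itself. The 19 leave out class medians of stress over control, which were sorted by the size of the move only. The somatotrope median, which went from -0.09 to 0.04 without the hormone genes, is such a case. The cause of the changes was not tested. No paired analysis was possible because the labels carry no replicate numbers and each group is 1 library.

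In pituitary hormone cells (2 higher, 5 lower), the number higher was 1 with doublets kept, 9 without hormone genes in the total, 8 with the median of all genes set to 0 and 0 after thinning to 1000 UMIs. The number lower was 1, 1 and 2 under the latter 3. Taken alone, lactotropes gave 5 higher and 1 lower, corticotropes 1 and 3 and melanotropes 0 and 3, while the number lower was 8 in somatotropes, 3 in gonadotropes and 2 in thyrotropes. The median changed sign to 0.37 and 0.38 without hormone genes, to 0.25 and 0.28 with the median of all genes at 0, to 0.25 and 0.33 in lactotropes alone and, in the control library, to 0.33 in thyrotropes alone. Dnajb11 became 0.15 in lactotropes under stress and 0.19 in control thyrotropes. Chac1 in the stress library became -0.44 in corticotropes, -1.03 in melanotropes and -0.094 in gonadotropes.

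In peptide neurons against other neurons (1 higher, 1 lower), the number higher was 2 with doublets kept, with a mitochondrial limit of 10% and without hormone genes, 3 with the median of all genes at 0, and 0 with a minimum of 500 UMIs. The number lower was 0 at resolution 2, after thinning, with a minimum of 500 UMIs, with neurons chosen by 10 or more UMIs of Oxt, Avp, Crh or Trh and with suprachiasmatic neurons added. Both numbers were 0 in an alternative chosen after seeing the data, all clusters whose best markers were those of peptide neurons (456 control and 327 stress cells). Sesn2 changed sign to 1.27 in the stress library after thinning and to 0.19 and 0.24 in neurons chosen by UMIs. Against non-neuronal cells (2 higher, 2 lower), the number higher was 0 after thinning, 4 with a minimum of 20 UMIs and 0 with one of 500. The number lower was 1 with the mitochondrial limit of 10%, 0 after thinning, 4 with the other classes weighted equally and 4 in the alternative chosen after seeing the data. The stress median changed sign to -0.015 at resolution 2, to -0.0050 with equal weights and to -0.058 in that alternative.

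In chromaffin cells (6 higher, 0 lower), 2 were higher after thinning, and 1 was lower with the mitochondrial limit of 10%, with the mean of single-cell CPM and against all other named adrenal cells. In the stress comparison (7 higher, 3 lower), a minimum of 20 UMIs gave 26 and 22, one of 500 gave 0 and 1, and a fold of 2 gave 1 and 0. The number lower was 6 with the other cells of the tissue subtracted. Ppp1r15a in peptide neurons became 0.043 after thinning. A class with few cells or a gene with few UMIs limits what these counts can show.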
